A study of Mus musculus with 74 samples.

Results

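MHC class I antigen presentation was described through 10 genes, chosen by name: the heavy chains H2-K1 and H2-D1, the light chain B2m, the peptide transporter subunits Tap1 and Tap2, the loading chaperone Tapbp, the inducible proteasome subunits Psmb8, Psmb9 and Psmb10, and the transcriptional regulator Nlrc5. These are 10 of 22079 gene symbols in the 5 comparisons analysed here. Each comparison set lung metastases (Lung met) against primary mammary tumors (PT) of mice whose tumors were driven by an oncogene. All 10 genes were listed in FVB Her2, FVB C3Tag and the PyMT-F1 comparison deposited under the name AKR. In BALB PyMT-F1 and SEAGN PyMT-F1 the genes were named by the BALB/cJ annotation, and 8 of the 10 were listed, without H2-K1 and H2-D1.

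The study holds 74 bulk RNA samples. FVB Her2 mice carry the MMTV-neu transgene and FVB C3Tag mice the C3(1)-TAg transgene, both on the inbred FVB/N background, and female offspring that carried the transgene were used. PyMT-F1 mice came from FVB males with the MMTV-PyVT transgene bred to females of BALB/cJ, SEA/GnJ or AKR/J, so every PyMT-F1 animal is a first-generation hybrid with an FVB father. The MMTV promoter drives its oncogene mainly in mammary epithelium. PT and Lung met numbered 6 each in Her2, BALB, SEAGN and AKR, and 7 each in C3Tag. The study's sample list gives another number of PTs for C3Tag, and which of them entered was not settled. All PTs of an animal were combined into a single vial, and in the driver models the tumors of animals with a single lesion were removed by surgery and the animals then aged while metastases grew. FVB Myc was not analysed here, because its comparison gave no group means. Which F1 cross the comparison named AKR holds was not settled, since the study's own gene lists attach these fold changes to BL6 (C57BL/6J), another strain it bred to PyMT males. If so, these animals carry the H2 haplotype of the reference genome beside that of FVB, unlike the animals of the other comparisons. Counts are therefore given with and without it.

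A class I molecule displays peptides from the inside of a cell to CD8 T cells. The proteasome cuts proteins into peptides, and under interferon-gamma the catalytic subunits Psmb8, Psmb9 and Psmb10 take the places of Psmb5, Psmb6 and Psmb7. Tap1 and Tap2 form the transporter that moves peptides into the endoplasmic reticulum, where Tapbp (tapasin) holds an empty heavy chain with B2m next to it until a peptide binds. Nlrc5 activates heavy chain genes, B2m and some other genes of this pathway through an enhanceosome on their promoters. Loss of class I display is a known route by which tumors escape T cells. Heavy chains are among the most variable genes between mouse strains: FVB, BALB/c and AKR carry different H2 haplotypes, none of them that of C57BL/6J, the strain of the reference genome.

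Promoter sequences are shown for H2-K1, B2m, H2-D1 and Tap1, because their promoters hold letters of the known class I elements that Nlrc5, interferon and NF-kB act on. They are taken from RefSeq on GRCm38.p6, which held 8 of the 10 promoters, Tap2 and Nlrc5 not among them, and they are the reference strain's letters, not those of the animals. Capitals mark matches on either strand to the NF-kB consensus, to the interferon regulatory factor (IRF) motifs GAANNGAAA or GAAANNGAA, to TGACG (the core of the X2 box) and to CCAAT (the Y box, ATTGG on the other strand). The stretch of H2-K1 is at chr17:34000349-34000497 on the minus strand and that of B2m at chr2:122147537-122147685 on the plus strand. Both end 2 bases before the start of transcription and lie outside annotated exons.
H2-K1: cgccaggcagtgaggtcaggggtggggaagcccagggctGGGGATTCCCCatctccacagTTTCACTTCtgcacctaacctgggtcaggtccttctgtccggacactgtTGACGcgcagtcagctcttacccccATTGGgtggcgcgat
B2m: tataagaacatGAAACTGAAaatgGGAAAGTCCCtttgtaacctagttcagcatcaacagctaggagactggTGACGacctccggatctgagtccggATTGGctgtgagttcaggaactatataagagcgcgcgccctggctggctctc
For H2-D1 and Tap1 the window overlaps an annotated exon, so windows of 30 bases are shown. They are at chr17:35262923-35262952 and chr17:35262993-35263022 for H2-D1 and at chr17:34187458-34187487 for Tap1, all on the plus strand.
H2-D1, NF-kB and IRF: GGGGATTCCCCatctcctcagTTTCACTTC
H2-D1, X2 and Y: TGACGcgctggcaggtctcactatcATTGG
Tap1, X2: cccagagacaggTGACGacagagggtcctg

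In each of H2-K1, H2-D1 and B2m the X2 core and the Y box span 30 bases, with 20 bases between them. The NF-kB and IRF matches of both heavy chains also span 30 bases in the same order, whereas in B2m they span 23 bases with the IRF match first. Within 250 bases before the start, TGACG and CCAAT occurred together in 5 of the 8 promoters (H2-K1, H2-D1, B2m, Tap1 and Psmb9) and in 6.1% of 32851 RefSeq promoters. TGACG, with or without CCAAT, occurred in 17.8% of all. Tap1 did not have the spacing of H2-K1, H2-D1 and B2m. Its TGACG was 86 to 82 bases and its only CCAAT 222 to 218 bases before the start. Either IRF motif occurred in 3 of 8 and in 12.5% of all, and the NF-kB consensus in the same 3 genes and in 3.9% of all. Psmb8 and Psmb10 held none of these letters in this window, and Tapbp held CCAAT alone. The RefSeq starts of Psmb9 and Tap1 face away from each other 225 bases apart, so their windows overlap and the X2 and Y matches of this pair are the same sites.

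By GENCODE M21 on GRCm38, 7 of the genes lie on chromosome 17, inside or next to the H2 complex. Tapbp is at chr17:33915899-33929292 and H2-K1 at chr17:33996017-34000347. Psmb9 at chr17:34181987-34187764, Tap1 at chr17:34187553-34197225, Psmb8 at chr17:34197721-34201454 and Tap2 at chr17:34203527-34216321 follow one another, and H2-D1 is at chr17:35262730-35267499. B2m is at chr2:122147686-122153083, Nlrc5 at chr8:94434356-94527272 and Psmb10 at chr8:105935735-105938444. In GENCODE, unlike by the RefSeq starts above, Psmb9 and Tap1 overlap at their first exons on opposite strands. Reads there cannot be assigned to either gene without strand. Of the 50-base words in the transcripts of H2-K1, 9.6% also occur in transcripts of other genes, and 12.8% in H2-D1, mostly in the H2-Q genes and in each other, so the values of both heavy chains are uncertain. The share was at most 2.9% for the other 8 genes.

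The values are the authors' means of normalized counts for each tissue, without a value for any single sample. No SD, n or test can be given beside them, and whether a difference exceeds the spread between animals could not be judged. The sequencing depth behind a mean is likewise unknown. A gene is counted as higher or lower where its means differ by at least 1.5 times, which is a size and not a test. Each comparison was normalized on its own, so the ratio of Lung met to PT is set side by side between models, and levels are not. In bulk tissue, fewer cells of a type and less RNA per cell cannot be told apart.

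The class I genes ranged from uniformly lower in Lung met to mostly higher. In Her2 all 10 were below PT, with a median log2 ratio of Lung met over PT of -0.18. In BALB 7 of 8 were below PT, with a median of -0.22. C3Tag had 6 below and 4 above, with a median of -0.035. In SEAGN 7 of 8 were above PT, with a median of 0.40, and in the comparison named AKR all 10 were above, with a median of 0.73. Tapbp lay so near PT in these last 2 comparisons that scaling both tissues to the same sum put it at -0.03 and -0.07, and in C3Tag that scaling put all 10 members above PT. Over all genes the median log2 ratio was -0.001 in Her2, 0.009 in C3Tag, 0.03 in BALB, 0.016 in SEAGN and 0.007 in the comparison named AKR. The share of all genes above PT was 49.7% in Her2, 51.2% in C3Tag, 55.3% in BALB, 52.6% in SEAGN and 50.8% in the comparison named AKR. These shares are also the background for later counts of genes above or below PT.

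By the size of 1.5 times, no member was higher in Her2, against a background of 5.42% of all genes, and none was lower, against 3.62%. None was higher in C3Tag, where the background was 14%, and none was lower, with a background of 5.61%. In BALB none was higher (background 6.2%) or lower (background 6.76%). In SEAGN 2 of 8 were higher, B2m and Psmb9, against 7.11% of all genes, and none was lower, against 8.32%. In the comparison named AKR 7 of 10 were higher, against 13.6%, and none was lower, against 6.32%. Without that comparison, the members that were 1.5 times higher anywhere are the 2 of SEAGN. The same shares of all genes are the background for the counts of the other gene lists below.

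**Figure D1:**
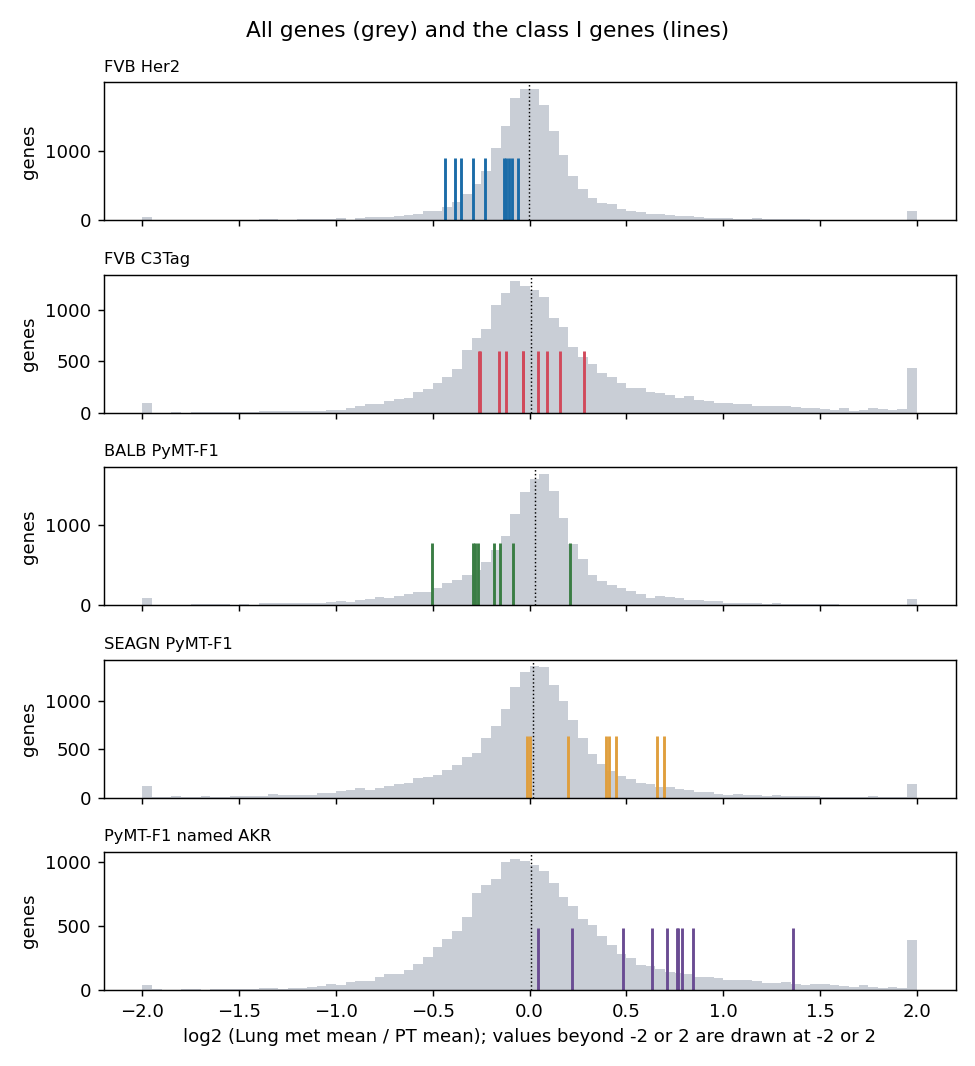
Number of genes (vertical axis) by log2 ratio of the Lung met mean over the PT mean (horizontal axis) in each comparison, with all genes in grey, a dotted line at their median and a colored line for each class I gene. The colored lines sit left of the center in Her2 and, but for B2m, in BALB, on both sides in C3Tag, right of it in SEAGN but for Psmb10 and Tapbp, and right of it in the PyMT-F1 comparison named AKR, where they reach 1.36.

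The heavy chains were among the most abundant transcripts wherever they were listed. H2-K1 had authors' means of 50933 in PT and 39849 in Lung met of Her2, above 99.8% and 99.7% of genes. Its means were 12729 in PT and 11718 in Lung met of C3Tag, and 12811 in PT and 22115 in Lung met of the comparison named AKR. H2-K1 was thus lower in Lung met by 1.28 times in Her2 and 1.09 times in C3Tag, and higher by 1.73 times in the comparison named AKR.

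H2-D1 had means of 72635 in PT and 66303 in Lung met of Her2, and of 30161 in PT and 33636 in Lung met of C3Tag. In the comparison named AKR they were 13084 in PT and 22277 in Lung met, 1.70 times higher. H2-D1 was therefore on the low side in Her2 alone, and in that comparison it differed less than H2-K1, with log2 ratios of -0.13 and -0.35. Per kilobase of exon, the level of H2-D1 was 1.62 times that of H2-K1 in PT of Her2, 2.7 times in PT of C3Tag and 1.16 times in PT of the comparison named AKR. From PT to Lung met this quotient went to 1.9 in Her2 and 3.27 in C3Tag, and stayed near its PT value at 1.15 in the comparison named AKR, where both chains moved together.

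B2m, the light chain that every class I heavy chain needs, was the member with the widest range of log2 ratios over the 5 comparisons. This rests on the comparison named AKR, without which Psmb9 spanned 0.99, Nlrc5 0.90 and B2m 0.77. Its means were 90340 in PT and 83920 in Lung met of Her2, and 14311 in PT and 13959 in Lung met of C3Tag. In BALB they were 3622.6 in PT and 4183.8 in Lung met, in SEAGN 2887.2 and 4558.6, and in the comparison named AKR 14457 and 37110. B2m was slightly below PT in both driver models, and above it by 1.15 times in BALB, 1.58 times in SEAGN and 2.57 times in the comparison named AKR. In BALB it was the only member above PT, and in the comparison named AKR its log2 ratio of 1.36 was higher than that of 95.5% of genes and exceeded those of the heavy chains by 0.57 and 0.59.

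**Figure D2:**
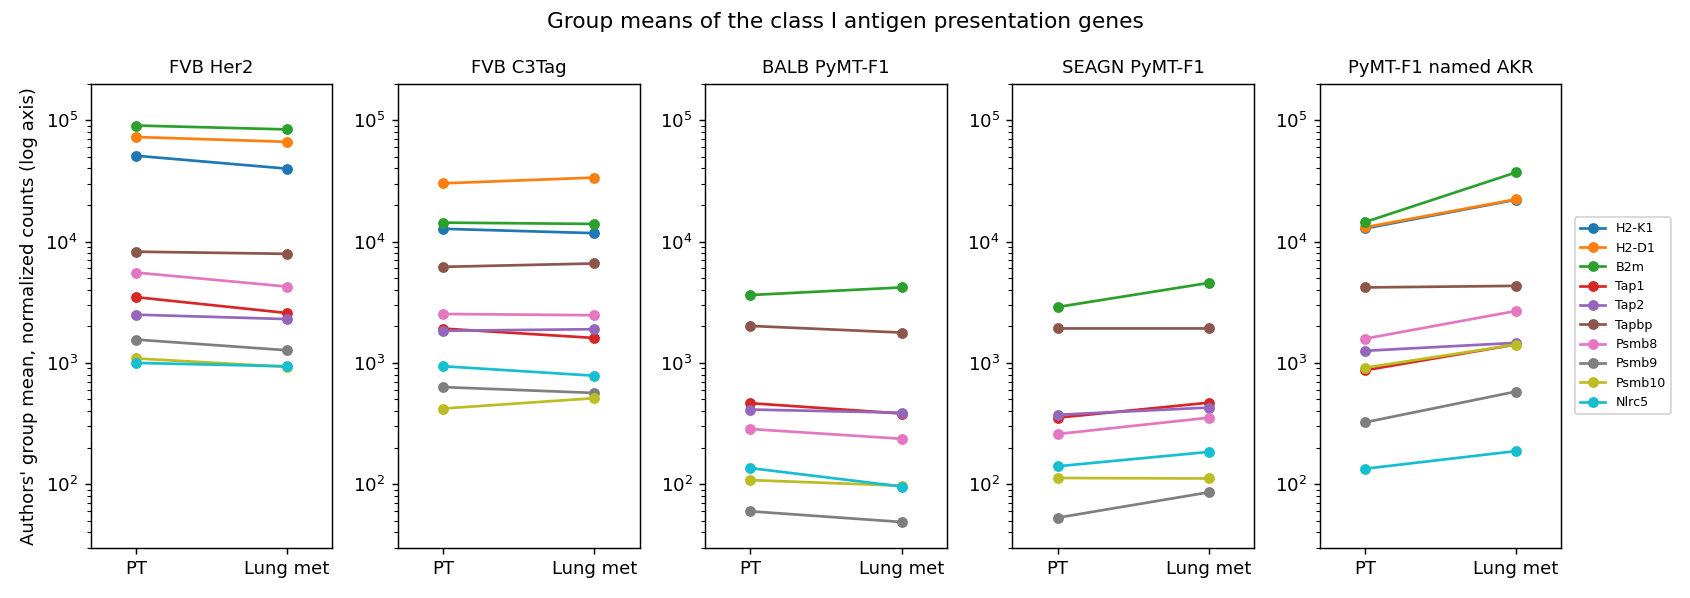
Authors' mean of normalized counts in PT and Lung met for each class I gene (log axis), with 1 panel for each comparison and a line joining both tissues of a gene. H2-K1, H2-D1 and B2m form the top band where they are listed, Nlrc5, Psmb9 or Psmb10 sits at the bottom, and the lines slope down in Her2 and up in the comparison named AKR.

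The transporter subunits did not move to the same degree. Tap1 had means of 3481.3 in PT and 2575.1 in Lung met of Her2, 1916.5 and 1604.2 in C3Tag, and 465.28 and 382.29 in BALB. They were 353.36 in PT and 469.62 in Lung met of SEAGN, and 868.42 and 1417.8 in the comparison named AKR. Tap1 was the lowest of the 10 in Her2 by log2 ratio (-0.43, with only 5.7% of genes below it), and was 1.63 times higher in Lung met in the comparison named AKR.

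Tap2, its partner, had means of 2495.7 in PT and 2294.7 in Lung met of Her2, 1838.3 and 1894.3 in C3Tag, 412.46 and 388.42 in BALB, 373.26 and 428.31 in SEAGN, and 1256.6 and 1461.8 in the comparison named AKR. Its log2 ratio stayed between -0.12 and 0.22. The log2 ratio of Tap1 was below that of Tap2 by 0.31 in Her2, 0.30 in C3Tag and 0.20 in BALB, the comparisons in which Tap1 was below PT. It was above that of Tap2 by 0.21 in SEAGN and 0.49 in the comparison named AKR, in which Tap1 was above PT.

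Tapbp, which bridges the transporter and the empty class I molecule, moved least of all. Its means were 8244.9 in PT and 7918.3 in Lung met of Her2, 6183.8 and 6591.3 in C3Tag, and 2015.9 and 1777.1 in BALB. They were 1920.9 and 1921.3 in SEAGN, and 4181.6 and 4309.4 in the comparison named AKR. Its log2 ratios spanned 0.27 over the 5 comparisons, from -0.18 in BALB to 0.09 in C3Tag, against 1.47 for B2m. In the comparison named AKR it was at 0.04 while 7 other members were at least 1.5 times higher.

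Among the inducible proteasome subunits, Psmb8 had means of 5548.1 in PT and 4253.1 in Lung met of Her2, 2528.1 and 2469.3 in C3Tag, and 284.86 and 236.89 in BALB. In SEAGN they were 259.18 and 353.2, and in the comparison named AKR 1581.7 and 2677.1. Psmb8 was lower by 1.30 times in Lung met of Her2 and 1.20 times in BALB, and higher by 1.36 times in SEAGN and 1.69 times in the comparison named AKR.

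Psmb9, which shares its promoter region with Tap1, had means of 1555.9 in PT and 1270.5 in Lung met of Her2, 631.46 and 565.19 in C3Tag, and 59.787 and 48.851 in BALB. They were 52.971 and 85.772 in SEAGN, and 323.4 and 580.09 in the comparison named AKR. It had the highest log2 ratio of the 8 listed members in SEAGN (0.70, 1.62 times). Psmb9 and Tap1 were on the same side of PT in all 5 comparisons, and their log2 ratios differed by at most 0.29.

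Psmb10 had means of 1087.9 in PT and 926.39 in Lung met of Her2, 420.45 and 511.33 in C3Tag, and 108.12 and 97.206 in BALB. They were 112.55 and 111.48 in SEAGN, and 911.8 and 1414.2 in the comparison named AKR. Psmb10 did not follow the other inducible subunits in every comparison: it was the highest member in C3Tag (1.22 times higher in Lung met), and in SEAGN it was the only member below PT, at a log2 ratio of -0.01.

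**Figure D3:**
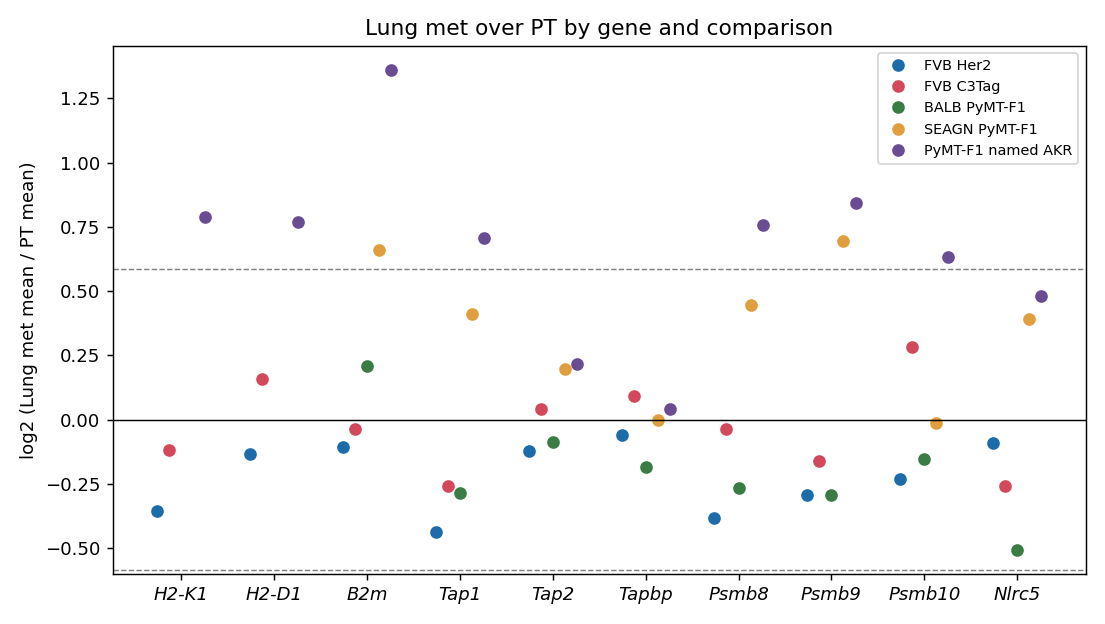
Log2 ratio of the Lung met mean over the PT mean (vertical axis) for each class I gene (horizontal axis), with 1 point for each comparison that lists it and dashed lines at 1.5 times. B2m reaches 1.36 in the comparison named AKR, Nlrc5 is at -0.51 in BALB, and the points of Tap2, Tapbp and Nlrc5 lie within the dashed lines in every comparison.

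The balance of inducible to constitutive subunits was lower in Lung met of Her2 and BALB for all 3 pairs. It was higher for all 3 in C3Tag and the comparison named AKR. In C3Tag the difference of log2 ratios was small for Psmb8 and Psmb5 (0.075) and for Psmb9 and Psmb6 (0.052). The quotient of the means of Psmb8 and Psmb5 went from 5.27 in PT to 4.4 in Lung met of Her2, from 0.843 to 0.64 in BALB, from 0.852 to 1.07 in SEAGN and from 0.853 to 1.2 in the comparison named AKR. In C3Tag it was 2.84 in PT and 3 in Lung met. Since the gene lengths cancel, these changes do not depend on length.

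The log2 ratio of Psmb9 minus that of Psmb6 was -0.14 in Her2, 0.05 in C3Tag, -0.35 in BALB, 0.69 in SEAGN and 0.44 in the comparison named AKR. For Psmb10 minus Psmb7 the differences were -0.12 in Her2, 0.39 in C3Tag, -0.20 in BALB, -0.10 in SEAGN and 0.42 in the comparison named AKR. SEAGN therefore had a higher balance for 2 of the 3 pairs, and Psmb10 was the exception. Per kilobase, Psmb8 was at 1.4 times the level of Psmb5 in PT of Her2, 0.756 times in PT of C3Tag and 0.227 times in PT of the comparison named AKR. Without division by length these quotients were 5.27, 2.84 and 0.853. The length covers the exons of all annotated transcripts of a gene, 3381 bases for Psmb8, so which subunit was the more abundant depends on it.

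By list medians, the other proteasome genes moved less than the inducible subunits in every comparison but C3Tag. In C3Tag the median was -0.11 for the constitutive catalytic subunits and -0.16 for the activator subunits, against -0.03 for the inducible subunits. None of the constitutive catalytic subunits Psmb5, Psmb6 and Psmb7 differed by 1.5 times in any comparison, and their median log2 ratio lay between -0.12 in Her2 and 0.27 in the comparison named AKR. Of 11 further core subunits, 1 was 1.5 times higher in the comparison named AKR, against 13.6% of all genes, and none elsewhere. It was Psmb3, with means of 2754 in PT and 4143 in Lung met. Psma3 had the highest median log2 ratio of the 11, running from -0.06 in Her2 to 0.19 in SEAGN. Psma2 had the lowest, from -0.11 in Her2 to 0.20 in the comparison named AKR. None of the activator subunits Psme1, Psme2 and Psme3, which cap the core, passed 1.5 times, and Psme1 came nearest with means of 2932 in PT and 4285 in Lung met of the comparison named AKR. Psme2 had the lowest median of the 3, with log2 ratios from -0.20 in BALB to 0.15 in the comparison named AKR.

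**Figure D4:**
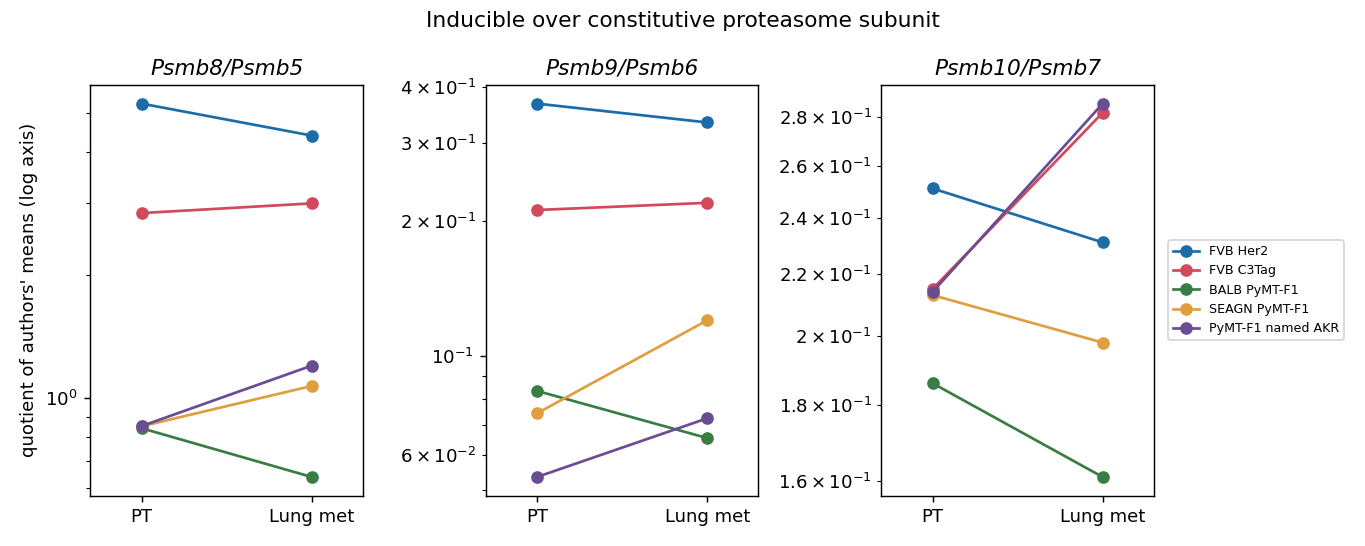
Quotient of the authors' means of an inducible proteasome subunit and the constitutive subunit it replaces (log axis) in PT and Lung met, with 1 line for each comparison and a range of its own for each panel's axis. For Psmb8 over Psmb5 the quotient goes from 0.843 to 0.64 in BALB and from 0.852 to 1.07 in SEAGN, from nearly the same PT value.

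Nlrc5, the regulator among the members, had means of 998.94 in PT and 937.28 in Lung met of Her2, 937.8 and 783.68 in C3Tag, and 135.81 and 95.684 in BALB. They were 140.62 and 184.61 in SEAGN, and 134.17 and 187.56 in the comparison named AKR. Nlrc5 was below PT in the first 3 comparisons and above it in the other 2, by 1.31 times in SEAGN and 1.40 times in the comparison named AKR. Its log2 ratio of -0.51 in BALB was the lowest of any member in any comparison, with 8.3% of genes below it. Per kilobase of exon it had the lowest mean of the 10 in each of the 3 comparisons where lengths could be used, at 117.6 in PT of Her2 against 105000 for B2m.

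BALB and SEAGN can be compared most directly, as both carry the PyMT transgene and use the same gene annotation. All 8 listed members had a higher log2 ratio in SEAGN than in BALB, against 48.3% of 16633 genes listed in both. The median difference over the members was 0.57, against -0.01 over all genes. It was largest for Psmb9 (0.99) and Nlrc5 (0.90), followed by Psmb8 (0.71) and Tap1 (0.69), and smallest for Psmb10 (0.14) and Tapbp (0.18). B2m was above PT in both, and its difference was 0.45. The difference between the crosses was not tested, for want of values of single samples.

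The other class I heavy chain genes, from the Q, T and M regions and the class I-like Cd1d1 and Mr1, were listed for 15 of 18 in Her2, C3Tag and the comparison named AKR, and for 5 of 18 in BALB and SEAGN. In Her2, 13 of 15 were below PT and in C3Tag 11 of 15, with no gene past 1.5 times in either. In SEAGN 1 of 5 was 1.5 times higher, H2-Q4, with means of 415.1 in PT and 681.1 in Lung met. In the comparison named AKR 7 of 15 were 1.5 times higher. H2-Q7 had the lowest median log2 ratio of the list, and its means were 3908 in PT and 2922 in Lung met of Her2, 2142 and 1478 in C3Tag, and 180.3 and 714.2 in the comparison named AKR. H2-M2 was listed in the comparison named AKR alone, with means of 28.19 and 108.1. Reads of the H2-Q genes are shared with H2-K1 and H2-D1, as described above.

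The loading and trimming genes Calr, Canx, Pdia3, Erap1 and Tapbpl did not pass 1.5 times in any comparison. Calr, the chaperone calreticulin, was above PT in all 5, with log2 ratios from 0.17 in Her2 to 0.32 in the comparison named AKR. Tapbpl, a peptide editor related to tapasin, ran from -0.33 in SEAGN to 0.51 in C3Tag.

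None of the enhanceosome partners of Nlrc5 (Rfx5, Rfxap, Rfxank and the NF-Y and CREB family genes) passed 1.5 times in any comparison, with list medians between -0.15 and 0.02. Rfxap had the highest median of them, from -0.14 in C3Tag to 0.11 in SEAGN, and Atf1 the lowest, from -0.22 to -0.03 in the 3 comparisons that list it. Among 16 interferon and NF-kB regulators, none passed in Her2, BALB or SEAGN. In C3Tag 3 of 16 were higher, Jak2, Irf8 and Socs1, against 14% of all genes. Irf8 and Socs1 were also higher in the comparison named AKR, where 13.6% of all genes were. Jak2, a kinase of the interferon-gamma receptor, had the highest median of the list and was above PT in all 5 comparisons, from 0.06 in the comparison named AKR to 0.65 in C3Tag. Socs1, which restrains that signal, had the lowest median, at -0.32 in Her2, -0.31 in BALB and -0.34 in SEAGN, although it was at 0.67 in C3Tag and 0.99 in the comparison named AKR. Outside C3Tag these ratios rest on low means, such as 10.13 in PT and 8.14 in Lung met of BALB. In the comparison named AKR the means of Socs1 were 18.31 in PT and 36.41 in Lung met. Irf1, an activator of class I genes picked out after its values were seen, stayed between -0.15 and 0.12.

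Interferon-gamma targets outside the pathway, such as the guanylate-binding proteins, had list medians of -0.18 in Her2, 0.20 in C3Tag, -0.23 in BALB, 0.09 in SEAGN and 1.02 in the comparison named AKR. In the comparison named AKR all 9 listed were 1.5 times higher. In C3Tag 1 of 10 was higher, Cd274. In Her2 1 of 10 was lower, the T cell chemokine Cxcl9, with means of 126.4 in PT and 56.71 in Lung met. In BALB 1 of 9 was lower, Gbp3, with means of 302.2 in PT and 180 in Lung met, and in SEAGN none of 9 passed. Cd274, which encodes the checkpoint ligand PD-L1, was above PT in all 5 comparisons, from means of 151.3 and 158 in Her2 to 55.18 and 179.4 in the comparison named AKR. The transcript of interferon-gamma itself, Ifng, was not listed in any of the 5.

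MHC class II genes, which present peptides on dendritic cells, macrophages and B cells, were above PT in most cases, also in Her2 and BALB, where class I genes were below it. In Her2 4 of 7 were 1.5 times higher in Lung met (Cd74, H2-Aa, H2-Ab1 and H2-Eb1), with a median log2 ratio of 0.63 against -0.18 for class I. In C3Tag 7 of 7 were higher, with a median of 0.72. In BALB all 5 listed were above PT with a median of 0.33, against -0.22 for class I, but none passed 1.5 times, and none passed in SEAGN, with a median of 0.25, and in the comparison named AKR 6 of 7 were higher, with a median of 0.95. H2-DMb1, part of the class II peptide loader, had the highest median of the list over the 3 comparisons that name it, at -0.01 in Her2, 1.27 in C3Tag and 0.95 in the comparison named AKR. Ciita, the class II counterpart of Nlrc5, had the lowest, from -0.15 in SEAGN to 0.72 in C3Tag.

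Class I genes are expressed by nearly all nucleated cells, so markers of other cells are given beside them. The summed level of the leukocyte markers Ptprc, Cd53, Coro1a, Laptm5 and Cd52 was 1.13 times higher in Lung met in Her2, 1.57 in C3Tag, 1.19 in BALB, 1.44 in SEAGN and 1.93 in the comparison named AKR, with all 5 markers listed and above PT in every comparison. The sums ran from 850.1 to 3560 in PT and from 1015 to 5604 in Lung met. Leukocyte markers were therefore above PT also in Her2 and BALB, where class I genes were below it. Their part in the class I ratios was not tested.

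Of 10 T and NK cell markers, 7 were listed in Her2, 5 in C3Tag, 3 in BALB, 4 in SEAGN and 9 in the comparison named AKR, with summed levels in Lung met of 0.862, 0.911, 1.34, 1.45 and 1.76 times PT. Gzma was listed in the comparison named AKR alone. Above PT were 3 of 7 in Her2, 3 of 5 in C3Tag and 2 of 3 in BALB. In SEAGN 3 of 4 were above PT, and in the comparison named AKR 7 of 9. Cd8a, a CD8 T cell marker picked out after its values were seen, was below PT wherever listed. Its log2 ratios were -0.46 in Her2, -0.84 in C3Tag, -0.57 in SEAGN and -0.44 in the comparison named AKR. In SEAGN its means were only 5.67 in PT and 3.82 in Lung met. Cd3e, a T cell marker also picked out after its values were seen, was above PT wherever listed. It was at 0.09 in C3Tag, 0.72 in BALB, 1.37 in SEAGN and 1.19 in the comparison named AKR. T cell markers thus went in both directions. The lowest marker means were 8.28 in Her2, 10.9 in C3Tag, 6.76 in BALB, 3.82 in SEAGN and 8.21 in the comparison named AKR. The sums therefore rest in part on low counts, most of all in BALB and SEAGN. Of 4 B cell markers, none was listed in Her2, BALB or SEAGN, 2 in C3Tag with a sum 2.63 times PT, and 1 in the comparison named AKR at 7.57 times PT. That 1 was Cd79b, with a low mean of 9.4 in PT and 71.16 in Lung met. Of 8 macrophage and dendritic cell markers, 7, 7, 4, 5 and 7 were listed, and they had summed levels of 0.778, 1.4, 1.01, 1.05 and 1.52 times PT in the same order of comparisons.

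Of 9 lung epithelium markers, 5 were listed in each comparison and all 5 were 1.5 times higher in Lung met, by 4.32 to 55 times when summed, and the endothelial markers were higher by 1.66 to 3.86 times. The surfactant genes Sftpa1, Sftpb and Sftpc and the club cell gene Scgb1a1 were not analysed here. Fibroblast markers summed to between 0.192 and 0.879 times PT, although Pdgfra was higher in Lung met in all 5 comparisons, by 1.36 to 1.92 times, and Dcn was 1.68 times higher in C3Tag. The tumor epithelium markers summed to between 0.969 and 1.05 times PT, with Krt8 and Krt18 listed in every comparison. In the comparison named AKR 5 of 6 entered, without Krt19. How much of these sums came from lung epithelium was not tested. Single markers went further in both directions: Krt19 was 14 times higher in Lung met of Her2 and 2.35 times higher in BALB, and in C3Tag Krt8 was 1.56 times higher and Epcam 1.6 times lower. The part of these cells in the class I ratios was not tested.

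**Figure D5:**
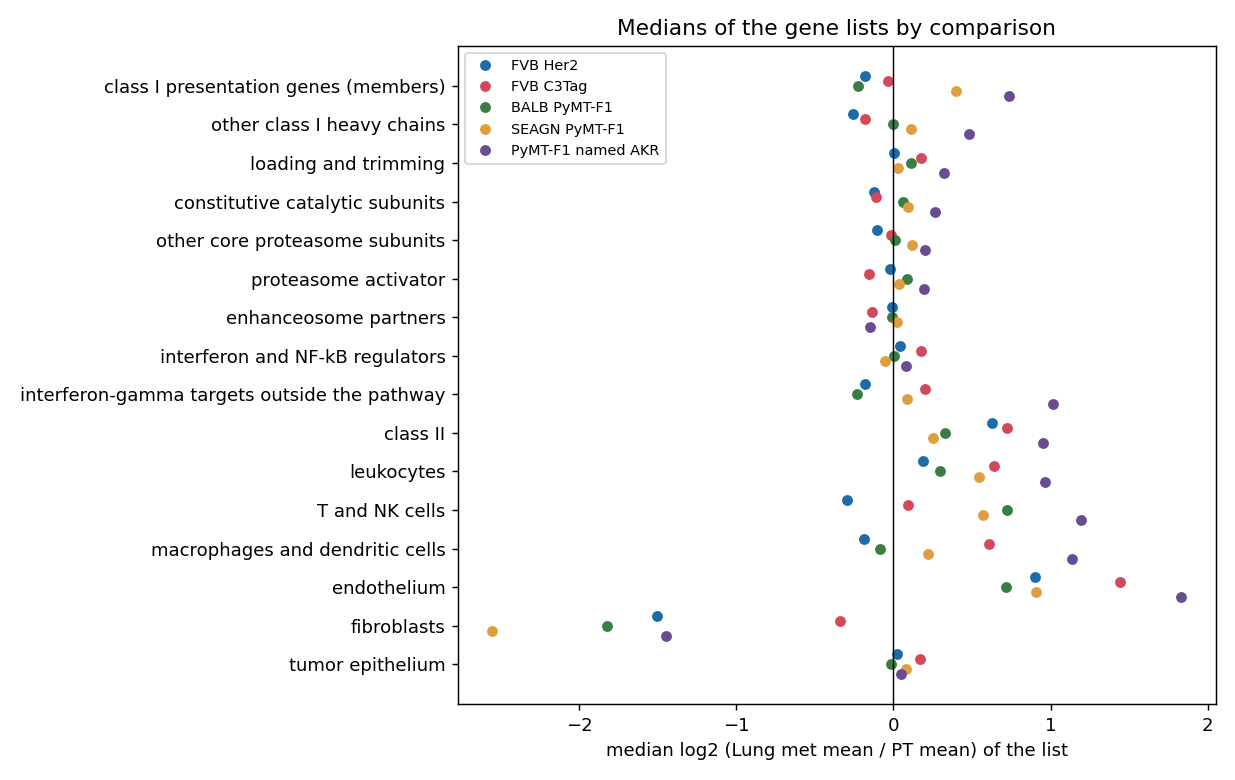
Median log2 ratio of the Lung met mean over the PT mean (horizontal axis) for the class I genes and 15 other gene lists, with 1 point for each comparison. The proteasome, loading and enhanceosome lists stay between -0.16 and 0.32, and the leukocyte and class II medians are above 0 in every comparison, while the class I median is below 0 in Her2, C3Tag and BALB.

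The genes whose 5 log2 ratios lay closest to the class I medians were Rnaseh2c, Chchd10, Mrps34, Rab27b and Mrps26, out of 9688 genes listed in all 5 comparisons with means of at least 50. Their Euclidean distances from the medians were 0.22, 0.29, 0.30, 0.32 and 0.34. Of the 8 members listed in all 5 comparisons, only Psmb8 lay closer, at 0.21, and Tap1 was at 0.34. B2m and Tapbp were farthest, at 0.81 and 0.82, B2m because its ratios are higher and Tapbp because they are near 0.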

How the data were processed

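The 10 members and the gene lists were chosen with earlier results of these data known, and the list genes named are those with the highest and lowest median ratio in each list, and, picked after their values were seen, Irf1, Cd8a, Cd3e and the few genes behind small counts. A gene of the regulator list is not reported here. The authors processed the reads in Partek Flow. The authors name mm9 and mm10 in the methods, and in their processing notes STAR 2.7.8a, DESeq2 and mm39. The library kit also differs between labels and methods. The authors compared the driver models by Gene Specific Analysis and the PyMT-F1 models by DESeq2. The values used, a signal, are the authors' deposited least-squares means of normalized counts for PT and Lung met. Deposited p-values, FDRs, ratios and fold changes are the authors' own comparisons and were not used, and FVB Myc, which holds p-values and FDRs only, was not analysed here. Depth per sample is unknown, so no interval was computed.

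Strain was taken from sample titles, which other labels contradict in part. Ratios of Lung met to PT were computed on the log2 scale for 18208 genes in Her2, 19320 in C3Tag, 17270 in BALB, 17351 in SEAGN and 17829 in the comparison named AKR, without pseudocount or filter. Levels per kilobase use the joint length of all annotated exons of a gene in GENCODE M21, which can exceed that of the transcripts made. The code was run on made-up means with known changes and no noise, which checks the arithmetic alone. The versions were numpy 2.4.6, pandas 2.3.3 and matplotlib 3.10.9 under Python 3.11.15. The alternatives tried were other ratios, a pseudocount, 3 scalings, a minimum mean and other treatments of the heavy chains.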

Additional observations from a re-analysis of the deposited data

How the results depend on the processing

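The median log2 ratio of the members moved by less than 0.1 with a pseudocount of 1, with centering on the median gene, with rows of the same symbol summed, without H2-K1 and H2-D1, with the heavy chains summed and with a mean of at least 10. Dividing each mean by the sum of all means moved the median to 0.77 in C3Tag, with 8 members 1.5 times higher. That division moved the median of all genes by 0.80 in C3Tag and by 0.11 in the opposite direction in the comparison named AKR. In C3Tag a single gene holds 38.3% of the PT sum, and without genes above 1000000, an alternative chosen after seeing the data, the C3Tag median moved by less than 0.1. In the comparison named AKR the median was 0.62 under either sum. With a ratio of 2, the members higher were 0 in SEAGN and 1 in the comparison named AKR. With a ratio of 5 to 4, 5 members were higher in SEAGN. Leaving out each replicate in turn was not run, because group means alone were analysed. No paired analysis was possible because the comparisons hold no values of single samples.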
